A study of Mus musculus with 4 samples.

Results

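Forkhead transcription factors of brain vessels were examined in RNA of brain endothelial cells from mouse embryos. The genes were Foxq1, Foxf1, Foxf2, Foxc1, Foxc2, Foxo1, Foxo3 and Foxp1, looked up by symbol in the deposited tables and joined by gene identifier. All 8 were listed in at least 1 table, of 17905 genes listed in either. Of these, 7 were in both tables and passed the filter on low counts, and Foxc2 was in 1 table only and could not enter the genotype test. The rule goes by gene symbol, and the genes were chosen with earlier results of these data known.

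The libraries came from brains of C57BL/6 embryos at embryonic day 18, and every one is labelled as endothelial cells. The mutant genotype is labelled STINGECKO (STING ECKO below), with libraries 1 and 2, and the wild type WT, with libraries 3 and 5. The labels do not spell this name out; the series concerns endothelial STING, an adaptor of cytosolic DNA sensing, and ECKO is read here as an endothelial knockout. The sources used here name neither the allele, the Cre driver, the isolation of the cells nor any treatment. The design text speaks of triplicates, whereas 2 libraries per genotype entered the comparison. Separate animals behind the libraries are not stated, and the p-values therefore reflect only the spread among these libraries, which for WT may be technical; the STING ECKO libraries differed in sex-linked reads, as given below.

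Forkhead factors share a winged-helix domain that binds DNA, and differ in the signals that control them. In mouse brain endothelium Foxq1 and Foxf2 are known as factors of the blood-brain barrier program that follows Wnt signalling, and Foxf2 and Foxc1 also act in the pericytes that wrap brain capillaries. Foxo1 and Foxo3 are held outside the nucleus when PI3K and Akt signalling is active, and Foxo1 is known to restrain endothelial growth. Foxf1 is best known in lung vessels, Foxc2 in lymphatic and arterial vessels, and Foxp1 in vessel growth and in neurons.

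Reads listed per library ranged from 18610298 to 22169261. Tmem173, which encodes STING, had 67 and 182 reads in the libraries labelled STING ECKO 1 and 2, against 97 and 130 reads in WT 3 and 5. Its level did not tell the genotypes apart. Which exons were deleted is not stated, and reads of intact exons count too, so all directions below rest on the labels. Cldn5, Pecam1 and Cdh5, which define endothelium, were abundant in every library. Cldn5 was at 10460 and 12560 CPM (reads relative to all listed reads of the library, scaled by TMM factors) in STING ECKO, against 10780 and 10460 CPM in WT. Pecam1 was lower in both STING ECKO libraries, at 526 and 474 CPM, against 616 and 593 CPM in WT. Cdh5 overlapped, at 243 and 342 CPM in STING ECKO, against 343 and 283 CPM in WT. Of 13 endothelial markers tested, 6 log2 fold changes were above 0 and 7 below. The groups did not overlap in 5 of them (38.5%, against 34.2% of all genes tested), 3 higher and 2 lower. Of the 14100 genes in both tables, 13.2% had 0 reads in STING ECKO 2, against 2.39% to 5.25% in the other libraries. The Y-linked Ddx3y had 3623 reads in STING ECKO 1 and 0 in WT 3 and was not listed in the other table, while Xist had no reads in STING ECKO 1 but 876 in STING ECKO 2, against 2347 in WT 3 and 3374 in WT 5; these sex-linked reads thus differed within the STING ECKO genotype.

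Upstream sequences are shown for Foxf2 and Foxc1, which lie in one cluster and behaved differently in STING ECKO 2, and for Foxo1, which was nearly equal within each genotype and lower in both STING ECKO libraries. Each is the 250 bases before the RefSeq start site, 5′ to 3′ on the gene's strand, in GRCm38.p6, with every CpG in capitals. The windows are chr13:31625566-31625815 on the plus strand for Foxf2, chr13:31806396-31806645 on the plus strand for Foxc1 and chr3:52268087-52268336 on the plus strand for Foxo1.
Foxf2: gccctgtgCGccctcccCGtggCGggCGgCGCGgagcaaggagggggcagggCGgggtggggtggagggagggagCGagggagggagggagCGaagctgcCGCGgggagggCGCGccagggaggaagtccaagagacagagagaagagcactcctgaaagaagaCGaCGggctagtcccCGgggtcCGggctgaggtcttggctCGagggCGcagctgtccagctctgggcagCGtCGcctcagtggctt
Foxc1: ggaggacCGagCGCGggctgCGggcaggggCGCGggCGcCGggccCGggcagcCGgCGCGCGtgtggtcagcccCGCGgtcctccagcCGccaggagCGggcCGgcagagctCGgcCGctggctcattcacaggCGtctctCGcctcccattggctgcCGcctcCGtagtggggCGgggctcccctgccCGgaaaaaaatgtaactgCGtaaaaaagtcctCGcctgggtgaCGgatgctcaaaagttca
Foxo1: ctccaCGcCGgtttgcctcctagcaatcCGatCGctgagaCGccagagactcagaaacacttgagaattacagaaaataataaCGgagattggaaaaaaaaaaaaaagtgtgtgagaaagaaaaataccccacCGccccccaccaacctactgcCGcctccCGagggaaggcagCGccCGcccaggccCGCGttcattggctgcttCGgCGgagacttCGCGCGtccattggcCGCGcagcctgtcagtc
They hold 21, 29 and 20 CpG, where the median of 32851 such windows was 6. RefSeq windows were matched for 5 of the 8 genes, 7 windows in all, since Foxp1 has 3 start sites. The letters GTAAACA, a core that forkhead factors bind, and CTTTGAT, a core of the TCF/LEF factors of Wnt signalling, were searched on both strands in the 300 bases from 250 before to 50 after each start. Neither was in any of the 7 windows; GTAAACA was in 3.65% and CTTTGAT in 3.73% of all windows searched.

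None of the 7 tested forkhead genes differed past the threshold between genotypes. The quasi-likelihood test of edgeR, adjusted over 13365 genes after Benjamini and Hochberg, called 0 of the 7 tested members and 0 genes in all (0.0%). At an unadjusted p under 0.05 there were 0 of 7 members and 650 genes (4.86%), and DESeq2 called 0 of 7 members and 87 genes (0.651%). The log2 fold change was below 0 in 5 of 7 members and in 51.3% of all genes, with medians of -0.34 and -0.02. The smallest unadjusted p among the members was 0.167, for Foxf1. Below, every member's adjusted p by the edgeR quasi-likelihood test was 1.00, and the smallest over all genes was 0.971.

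**Figure D1:**
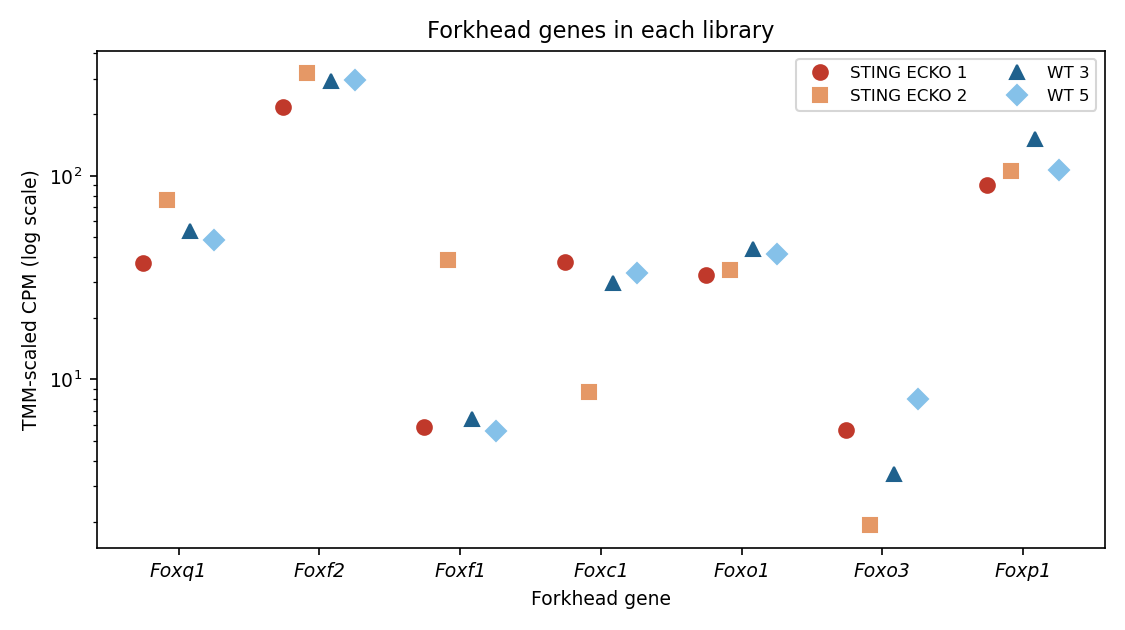
TMM-scaled CPM (log axis) of the 7 forkhead genes in both tables, 1 point per library, with STING ECKO 1 and 2 to the left of WT 3 and 5. Foxo1 stays within 32.7 to 43.6 CPM in all libraries, while Foxf1 is at 38.6 CPM and Foxc1 at 8.70 CPM in STING ECKO 2 alone.

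Foxf2 was the most abundant member and was close to equal in the WT libraries. The gene (ENSMUSG00000038402, chromosome 13, 31625816 to 31631403, plus strand, GRCm38) had 4011 and 6954 reads in STING ECKO 1 and 2, against 6353 and 6150 reads in WT 3 and 5. That made 218 and 319 CPM in STING ECKO, against 292 and 295 CPM in WT. STING ECKO 1 was the lowest library and STING ECKO 2 the highest, with both WT libraries between them. The means were 268 ± 71.1 CPM in STING ECKO, against 293 ± 2.03 CPM in WT (SD, n = 2 each), for a log2 fold change of -0.13 (SE 0.26; edgeR quasi-likelihood test, adjusted p = 1.00). The 95% interval of the difference ran from 0.583-fold to 1.44-fold.

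Foxq1, the other barrier factor, followed the order of Foxf2 within the STING ECKO genotype. It (ENSMUSG00000038415, chromosome 13, 31556134 to 31560976, plus strand) had 683 and 1663 reads in STING ECKO, or 37.1 and 76.2 CPM, against 1168 and 1009 reads in WT, or 53.7 and 48.4 CPM. The STING ECKO libraries enclosed the WT libraries, so the groups overlapped. The log2 fold change was 0.15 (SE 0.50; edgeR quasi-likelihood test, adjusted p = 1.00), with an interval from 0.461-fold to 2.68-fold. Taken within a library, which no scaling can alter, there were 17.0 and 23.9 reads of Foxq1 per 100 of Foxf2 in STING ECKO, against 18.4 and 16.4 in WT. That ratio was highest in STING ECKO 2 and alike in the other 3 libraries.

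Foxc1, a factor of pericytes, endothelium and meninges, was low in a single library. The gene (ENSMUSG00000050295, chromosome 13, 31806633 to 31812476, plus strand) had 691 and 190 reads in STING ECKO, or 37.6 and 8.70 CPM, against 645 and 693 reads in WT, or 29.6 and 33.2 CPM. STING ECKO 1 was the highest of the 4 and STING ECKO 2 far below the rest, a gap of 4.32-fold between libraries of one genotype. The 190 reads carry an exact binomial 95% interval of 164 to 219 reads, which covers counting error only. Means were 23.1 ± 20.4 CPM in STING ECKO, against 31.4 ± 2.53 CPM in WT (SD, n = 2 each), and the log2 fold change was -0.44 (SE 0.85; edgeR quasi-likelihood test, adjusted p = 1.00). Without STING ECKO 2 the log2 fold change was 0.26.

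Foxc1, Foxf2 and Foxq1 lie on the same strand within one stretch of chromosome 13, and the low value of Foxc1 in STING ECKO 2 was not shared by Foxf2 and Foxq1, while 3 other listed genes around the cluster were also lowest there. Foxq1 ends 64.8 kb before Foxf2, and Foxf2 ends 175 kb before Foxc1. STING ECKO 2 had 2.73 reads of Foxc1 per 100 of Foxf2 and STING ECKO 1 had 17.2, against 10.2 in WT 3 and 11.3 in WT 5. Gmds, the next listed gene (7.10 kb on, opposite strand), was at 54.0 and 28.4 CPM in STING ECKO, against 68.3 and 57.3 CPM in WT. Exoc2, before the cluster by 582 kb, was at 109 and 78.6 CPM in STING ECKO, against 121 and 153 CPM in WT. Dusp22, a phosphatase gene farther out, had its values known when it was chosen. It lay at 43.5 and 8.93 CPM in STING ECKO, against 34.4 and 29.4 CPM in WT. Its order of libraries within STING ECKO was that of Foxc1. STING ECKO 2 was the lowest library for 6 of the 9 tested neighbours of the forkhead clusters, those of Foxf1 included, and the highest for 2. How often all genes were lowest there was not counted, so these places are a description only.

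Mural cells and fibroblasts also express Foxc1, and their markers were summed beside it. The 13 markers of pericytes and smooth muscle summed to 10210 and 10630 CPM in STING ECKO, against 8292 and 7653 CPM in WT. Of these, 7 of the 10 in both tables did not overlap between genotypes, 5 of them higher in STING ECKO (34.2% of all genes tested did not overlap, 15.6% higher). The smooth muscle markers had few reads and went both ways. Acta2 had 0 and 0 reads in STING ECKO, against 31 and 55 in WT. Listed for STING ECKO 1 and WT 3 only, Tagln had 0 against 6 reads, Myh11 17 against 0 and Cnn1 24 against 5. Fibroblast markers, 8 of 10 listed, summed to 541.5 and 537 CPM in STING ECKO, against 527 and 520 CPM in WT, with Dcn at 36 and 0 reads in STING ECKO, against 154 and 8 in WT. Few genes carry these sums. Rgs5 alone made 7238 of the 10630 CPM in STING ECKO 2. In the fibroblast sums Igf2 made 266 and 250 CPM in STING ECKO, against 294 and 333 CPM in WT. Igf2 was thus lower in both STING ECKO libraries, while Col1a2 and Col3a1 were higher in both. Near equality of the fibroblast sums therefore does not mean that the single markers were alike. Single markers went both ways in STING ECKO 2. Abcc9 was at 259 and 129 CPM in STING ECKO, against 215 and 136 CPM in WT, and Dcn and Twist1 had 0 reads in STING ECKO 2. Kcnj8 at 1552 CPM, Vtn at 925 CPM, Col1a2 at 127 CPM and Col3a1 at 140 CPM were highest in STING ECKO 2. Of 5 tested fibroblast markers, 4 did not overlap between genotypes (80.0%, against 34.2% of all genes tested), 3 of them higher in STING ECKO. The part of either cell type in the forkhead values was not tested. In RNA of bulk cells, fewer cells of a type and less RNA per cell cannot be told apart.

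Foxf1, a factor of lung vessels, stood out in the same library in the other direction. The gene (ENSMUSG00000042812, chromosome 8, 121084386 to 121088144, plus strand) had 107 and 842 reads in STING ECKO, or 5.82 and 38.6 CPM, against 139 and 116 reads in WT, or 6.39 and 5.56 CPM. STING ECKO 1 lay between the WT libraries and STING ECKO 2 was 6.63-fold above it. The log2 fold change was 1.89 (SE 1.18; edgeR quasi-likelihood test, adjusted p = 1.00), with an interval from 0.464-fold to 29.7-fold, and it was -0.04 without STING ECKO 2. Such gaps were not rare in these data: of 3661 genes within 2-fold of its mean level, 22.3% differed at least as much between the STING ECKO libraries, and for Foxc1 the share was 16.9% of 4205 genes. Foxf1 and Foxf2 transcripts share no run of 50 bases, so reads of that length tell these paralogs apart.

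The neighbours of Foxf1 on chromosome 8 did not all follow it. Fendrr, a long noncoding RNA that starts on the opposite strand 1.28 kb before Foxf1 and was named for that position, was at 5.44 and 13.9 CPM in STING ECKO, against 4.69 and 8.72 CPM in WT. It too was highest in STING ECKO 2. Mthfsd, 3.48 kb behind Foxf1, was at 45.8 and 20.2 CPM in STING ECKO, against 49.2 and 105 CPM in WT, with STING ECKO 2 the lowest.

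Foxc2, the gene 28.0 kb from Foxf1 and the paralog of Foxc1, was detected in a single library. It (ENSMUSG00000046714, chromosome 8, 121116171 to 121118895, plus strand) had 141 reads in STING ECKO 1, or 7.67 CPM, and 0 reads in WT 3. It was not listed in the table of STING ECKO 2 and WT 5. Genes listed there with 0 reads in 1 library had at least 5 in the other. By that pattern Foxc2 had at most 4 reads in either library, a limit read from the listed genes. Against a floor of 3 reads in WT 3, its level in STING ECKO 1 was 54.2-fold higher, relative to all listed reads. That ratio is not a lower bound, since it leaves out counting error. The exact binomial interval reached down to 119 reads in STING ECKO 1 and up to 3.69 reads in WT 3. The ratio compares these 2 libraries and not the genotypes. Foxc1 and Foxc2 share 4 runs of 50 bases, 0.149% of those of Foxc2.

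Foxo1 was nearly equal within each genotype and lay lower in both STING ECKO libraries. The gene (ENSMUSG00000044167, chromosome 3, 52268336 to 52353221, plus strand) had 602 and 749 reads in STING ECKO, or 32.7 and 34.3 CPM, against 949 and 866 reads in WT, or 43.6 and 41.5 CPM. The groups did not overlap. Means were 33.5 ± 1.12 CPM in STING ECKO, against 42.5 ± 1.48 CPM in WT (SD, n = 2 each), for a log2 fold change of -0.34 (SE 0.46; edgeR quasi-likelihood test, adjusted p = 1.00). The test takes much of its spread from other genes of like level, so its standard error is wider than these 4 values alone would give. Leaving out any library kept the log2 fold change between -0.38 and -0.31. Where the groups do not overlap, a left-out library can hardly turn the sign, so the kept sign restates that. Of 4239 genes of like level, 94.9% differed at least as much between the STING ECKO libraries. Markers of astrocytes and radial glia lay lower in STING ECKO. They summed to 66.3 and 10.4 CPM in STING ECKO, against 137 and 94.55 CPM in WT, with 9 of 9 log2 fold changes below 0. Of these markers, 1 and 5 were at 0 reads in STING ECKO 1 and 2, against 0 and 0 in WT. Microglia and macrophage markers summed to 542 and 418 CPM in STING ECKO, against 541 and 1322 CPM in WT. These sums overlapped, with WT 5 alone standing out. Of 10 log2 fold changes of these markers, 8 were below 0 and 2 above. The part of all these cells in the level of Foxo1 was not tested.

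Foxp1, which takes part in vessel growth, was the other member without overlap, by a small margin. It (ENSMUSG00000030067, chromosome 6, 98925338 to 99522721, minus strand) had 1652 and 2303 reads in STING ECKO, or 89.8 and 105 CPM, against 3292 and 2225 reads in WT, or 151 and 107 CPM. STING ECKO 2 and WT 5 were nearly equal and WT 3 stood above the other 3. The log2 fold change was -0.40 (SE 0.31; edgeR quasi-likelihood test, adjusted p = 1.00), and -0.13 without WT 3. Of its runs of 50 bases, 2.42% also occur in other genes, where reads could be shared. Libraries of the genotypes did not overlap in 2 of 7 members, both lower in STING ECKO, and in 34.2% of all genes tested (18.6% lower), so the members' share of 28.6% is near the background. Neuron markers, of a cell type that also expresses Foxp1, summed to 66.8 and 42.7 CPM in STING ECKO, against 155 and 91.6 CPM in WT. Of 9 tested, 8 log2 fold changes were below 0 and 1 above. The groups did not overlap in 4 of the 9 (44.4%), all lower in STING ECKO. DESeq2 called 2 of the 9, against 0.651% of all genes, and the edgeR quasi-likelihood test called 0. The part of neurons in the value of Foxp1 was not tested.

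Foxo3, a FoxO factor of stress and quiescence, was the scarcest tested member. The gene (ENSMUSG00000048756, chromosome 10, 42181841 to 42276755, minus strand) had 104 and 42 reads in STING ECKO, or 5.65 and 1.92 CPM, against 75 and 168 reads in WT, or 3.45 and 8.05 CPM. The groups overlapped, with the lowest value in STING ECKO 2 and the highest in WT 5. The log2 fold change was -0.60 (SE 1.40; edgeR quasi-likelihood test, adjusted p = 1.00), and its interval ran from 0.0555-fold to 7.83-fold. It was 0.14 without WT 5.

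**Figure D2:**
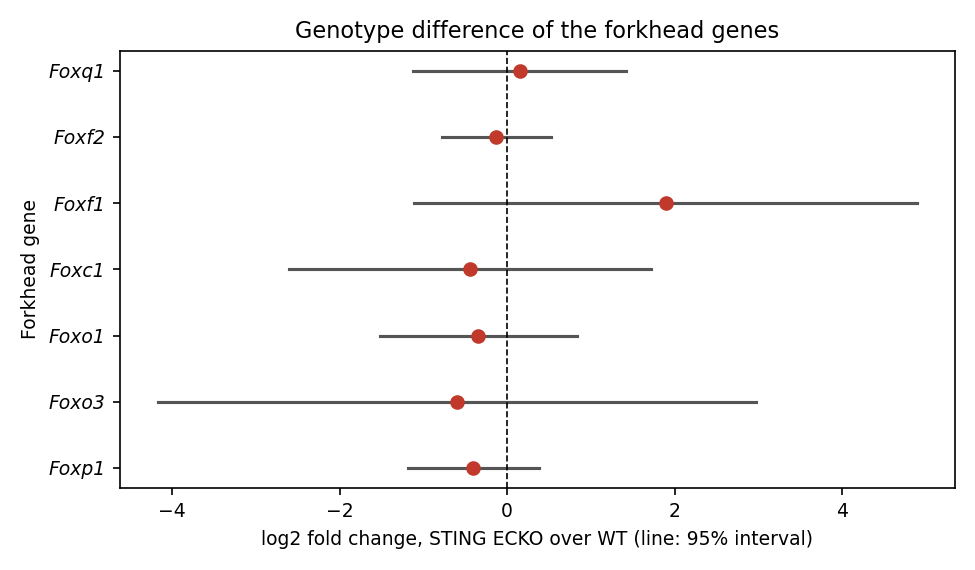
Log2 fold change, STING ECKO over WT, of the 7 tested forkhead genes (points) with 95% intervals (lines). Every interval includes 0; that of Foxf2 is narrow, from -0.78 to 0.52, and that of Foxo3 wide, from -4.17 to 2.97.

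Set out by deposited pair, the members mostly pointed opposite ways. STING ECKO 1 over WT 3 and STING ECKO 2 over WT 5 gave log2 ratios of -0.53 and 0.66 for Foxq1, -0.42 and 0.11 for Foxf2, and -0.13 and 2.79 for Foxf1. For Foxc1 they were 0.34 and -1.93, and for Foxo3 0.71 and -2.07. Foxo1, at -0.41 and -0.27, and Foxp1, at -0.75 and -0.02, had the same sign in both. That follows from their groups not overlapping and is no separate result. Thus 2 of 7 members had the same sign, where 50.3% of the 11545 genes with a read in every library did. Of the other forkhead genes, 9 of 12 had the same sign. The pairs share no library and reflect only how the tables were deposited, so these counts are a description only.

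The authors' deposited tables marked 1 of 8 members between STING ECKO 1 and WT 3, which was Foxc2 as higher, among 40.9% of all genes marked. Of 7 members listed with STING ECKO 2 and WT 5, the authors' deposited table marked 3, Foxf1 as higher and Foxc1 and Foxo3 as lower, among 52.1% of all genes. Each of these marks compares 1 library with 1 library.

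**Figure D3:**
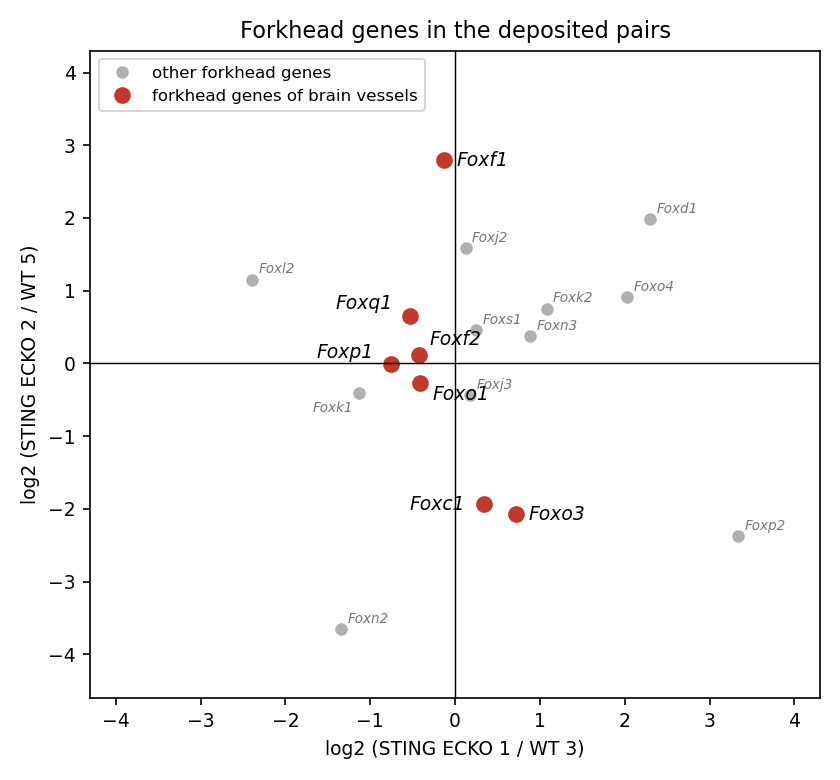
Log2 ratio of STING ECKO 1 over WT 3 (x axis) and of STING ECKO 2 over WT 5 (y axis) for 7 brain vessel forkhead genes (red) and 11 of the 12 other forkhead genes with reads in every library (grey; the other one is not shown). Foxo1 and Foxp1 alone among the red points lie below 0 on both axes, at -0.41 and -0.27 and at -0.75 and -0.02.

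Per length of exon, Foxf2 stood far above the other members. It was at 92.3 and 135 CPM per kb in STING ECKO, against 124 and 125 CPM per kb in WT. Foxq1 came next, with 7.67 and 15.7 CPM per kb in STING ECKO, against 11.1 and 9.98 in WT, and the ranges of these genes over the 4 libraries did not overlap. Foxp1 (6.53 to 11.0 CPM per kb), Foxf1 (2.30 to 16.0), Foxc1 (1.49 to 6.43) and Foxo1 (3.78 to 5.03) followed, and each of their ranges overlapped that of the next. Foxf1 was above Foxc1 per kb in 1 of 4 libraries, STING ECKO 2, which sets its place. Foxo3 was last, at 0.254 to 1.06 CPM per kb, below Foxo1 in 4 of 4 libraries. The place of Foxp1 depends on the length used: its mean was 8.24 CPM per kb of all annotated exons and 15.8 per kb of its longest transcript, which puts it above Foxq1 at 11.1.

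Of the 36 other forkhead genes looked for, 17 were listed, and 14 were in both tables and tested. Foxs1, a forkhead gene of pericytes, was the only one near Foxf2 per length, at 114 and 99.6 CPM per kb in STING ECKO, against 95.8 and 72.4 CPM per kb in WT. Foxf2 held 33.6% and 42.7% of the summed forkhead level per length in STING ECKO, against 43.1% and 47.8% in WT, and Foxs1 held 41.5% and 31.6% in STING ECKO, against 33.4% and 27.8% in WT. Foxs1 is one of the 13 pericyte and smooth muscle markers summed above; the other 12 summed to 10060 and 10500 CPM in STING ECKO, against 8166 and 7558 CPM in WT, and their part in the level of Foxs1 was not tested. Foxs1 exceeded Foxf2 in STING ECKO 1 and lay below it in the other 3 libraries. The 8 brain vessel members together made up 44.7% and 57.0% in STING ECKO, against 55.4% and 59.9% in WT.

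**Figure D4:**
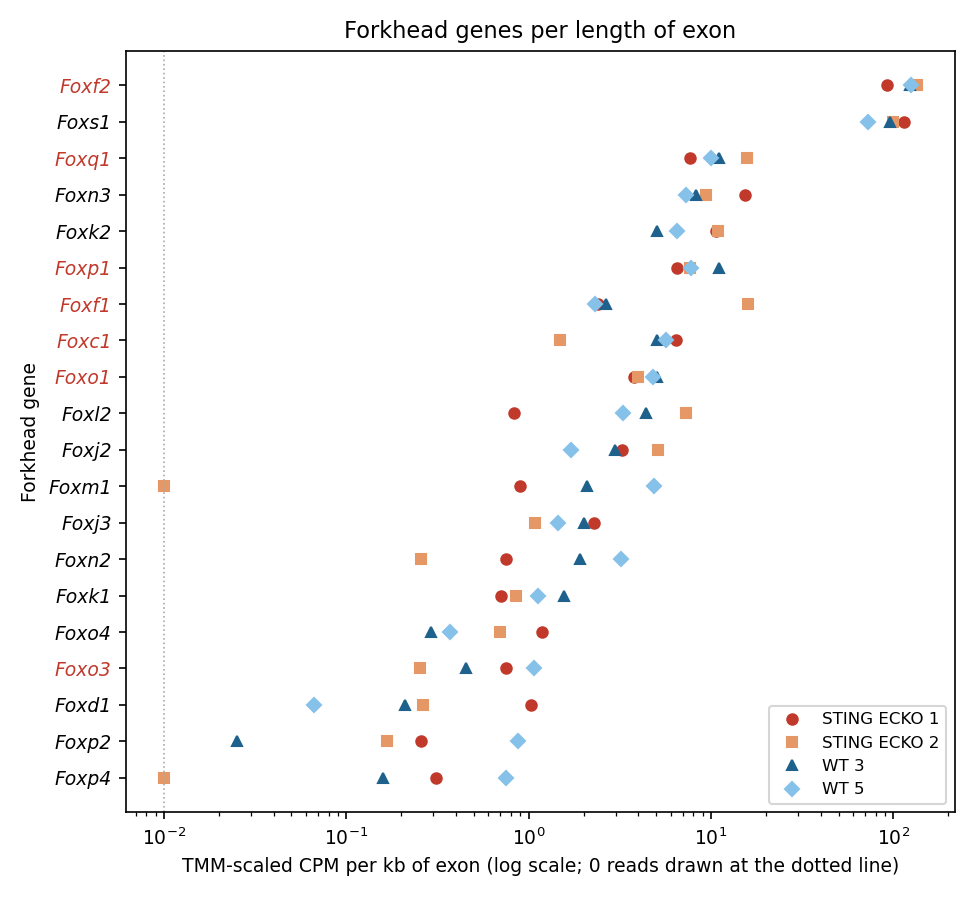
TMM-scaled CPM per kb of exon (log axis) of 20 of the 21 forkhead genes in both tables (the other one is not shown), ordered by their mean, 1 point per library, brain vessel members named in red. Foxf2 and Foxs1 lie between 72.4 and 135 CPM per kb, and the other genes at 16.0 or below.

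None of the other 14 forkhead genes passed the edgeR quasi-likelihood test, 7 had a log2 fold change above 0 and 7 below, and 9 (64.3%, against 34.2% of all genes) did not overlap between genotypes. Foxn3, a repressor, was at 177 and 108 CPM in STING ECKO, against 95.6 and 83.7 CPM in WT. Foxk2, a factor of metabolic genes, was at 56.2 and 57.4 CPM in STING ECKO, against 26.6 and 34.1 CPM in WT, a log2 fold change of 0.91 (SE 0.45). Its STING ECKO values were nearly equal and both above WT, with an unadjusted p of 0.0966 by the edgeR quasi-likelihood test. Foxj2 was at 17.3 and 27.4 CPM in STING ECKO, against 15.8 and 9.15 CPM in WT. Foxj3 was at 24.9 and 11.8 CPM in STING ECKO, against 22.0 and 16.0 CPM in WT, with overlap.

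Foxn2 and Foxm1 lay on the low side in STING ECKO. Foxn2 had 102 and 41 reads in STING ECKO, against 306 and 495 reads in WT, a log2 fold change of -2.35 (SE 1.10) and an unadjusted p of 0.0848 by the edgeR quasi-likelihood test, the smallest of the 14. Foxm1, a factor of dividing cells, had 95 and 0 reads in STING ECKO, against 263 and 584 reads in WT. Foxk1 was at 5.38 and 6.46 CPM in STING ECKO, against 11.9 and 8.58 CPM in WT. Foxo4, the X-linked FoxO gene, had 76 and 53 reads in STING ECKO, against 22 and 27 reads in WT, and was higher in both STING ECKO libraries, of which 1 had reads of Y-linked genes.

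Foxl2, reported beside Foxq1 and Foxf2 as a barrier factor in mouse brain endothelium, had 50 and 518 reads in STING ECKO, against 311 and 223 reads in WT. The groups overlapped, with STING ECKO 1 lowest and STING ECKO 2 highest. Its antisense partner Foxl2os, named after its values were seen, had 466 and 697 reads in STING ECKO, against 68 and 189 reads in WT, a log2 fold change of 2.23 (SE 0.92; edgeR quasi-likelihood test, unadjusted p = 0.0575, adjusted p = 1.00). The genes share 12 bases at their starts, and without a stated strand setting their reads there cannot be told apart.

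Other forkhead genes had few reads. Foxd1 had 96 and 29 reads in STING ECKO, against 23 and 7 in WT. Foxp2 had 77 and 60 reads in STING ECKO, against 9 and 298 in WT, and Foxp4 had 28 and 0 in STING ECKO, against 17 and 77 in WT. In 1 table only were Foxa1 (0 reads in STING ECKO 1 and 81 in WT 3), Foxj1 of ciliated cells (1 in STING ECKO 1 and 38 in WT 3) and Foxl1 (0 in STING ECKO 2 and 19 in WT 5).

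Genes of barrier factors and Wnt response linked to Foxf2 and Foxq1 showed no call in 10 tested, with 4 log2 fold changes above 0 and 6 below, a median of -0.20 against -0.02 for all genes, and 30.0% without overlap. Sox17, a SoxF factor of arteries, was at 446 and 267 CPM in STING ECKO, against 521 and 442 CPM in WT. Its relative Sox18 was at 635 and 439 CPM in STING ECKO, against 674 and 654 CPM in WT. Axin2, a feedback gene of Wnt signalling, had 136 and 29 reads in STING ECKO, against 243 and 199 in WT. STING ECKO 2 was the lowest library for 6 of the 10 genes, Sox17, Sox18 and Axin2 among them, and the highest for 3, which were Foxl2, Lef1 and Ppard. It was also the highest for Foxq1 and Foxf2. How often all genes were lowest or highest in STING ECKO 2 was not counted, so these places are a description only.

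PI3K and Akt genes, which control where FoxO proteins reside, gave 0 calls in 16 tested, with 12 log2 fold changes above 0 and 4 below, a median of 0.21, and 31.2% without overlap. Sgk1, a kinase that phosphorylates FoxO proteins, was at 298 and 140 CPM in STING ECKO, against 480 and 410 CPM in WT, a log2 fold change of -1.02 (SE 0.39; edgeR quasi-likelihood test, unadjusted p = 0.0468, adjusted p = 1.00). Insr, which encodes the insulin receptor, lay at 356.5 and 355.7 CPM in STING ECKO, against 380.4 and 498.8 CPM in WT. Ywhaz, a 14-3-3 protein that binds FoxO, lay at 1175 and 1156 CPM in STING ECKO, against 1042 and 976 CPM in WT. Pik3r1, a regulatory subunit of PI3K, was at 79.1 and 73.9 CPM in STING ECKO, against 53.4 and 64.5 CPM in WT.

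Known FoxO targets gave 0 calls in 26 tested, with 9 log2 fold changes above 0 and 17 below, a median of -0.16, and 34.6% without overlap. The list was not split by whether FoxO factors raise or lower a gene, so these signs give no direction of FoxO activity. Mxi1, an antagonist of Myc, was at 84.0 and 160.5 CPM in STING ECKO, against 73.5 and 34.4 CPM in WT. Myc itself was at 41.6 and 49.9 CPM in STING ECKO, against 52.6 and 90.2 CPM in WT. Klf2, a flow-induced factor, was at 126 and 138 CPM in STING ECKO, against 101 and 83.6 CPM in WT. All 3 were without overlap, and their unadjusted p by the edgeR quasi-likelihood test was 0.0768 for Mxi1, 0.207 for Myc and 0.122 for Klf2.

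Vascular genes linked to FoxC and FoxF factors gave 0 calls in 21 tested, with 9 log2 fold changes above 0 and 12 below, a median of -0.07, and 33.3% without overlap. Notch1 was at 152 and 137 CPM in STING ECKO, against 221 and 170 CPM in WT, and the chemokine Cxcl12 at 419 and 449 CPM in STING ECKO, against 574 and 500 CPM in WT. Flt1 and Kdr, receptors of VEGF, were on the other side, Flt1 at 2441 and 1869 CPM in STING ECKO, against 1770 and 1711 CPM in WT, and Kdr at 2426 and 2679 CPM in STING ECKO, against 2360 and 1931 CPM in WT. Genes around the forkhead clusters gave 0 calls in 9 tested, with 2 log2 fold changes above 0 and 7 below, and 33.3% without overlap.

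**Figure D5:**
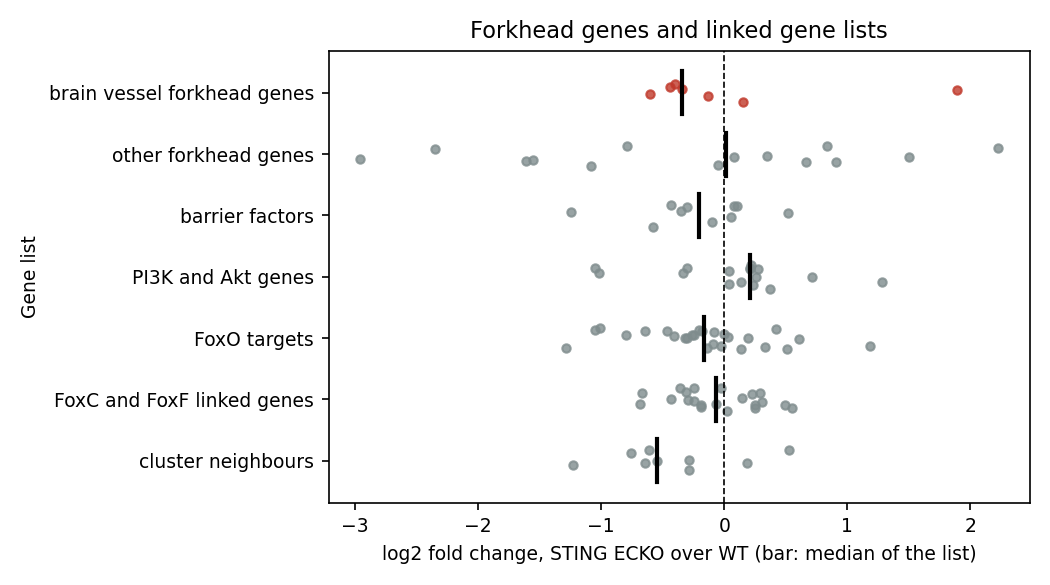
Log2 fold change, STING ECKO over WT, of each tested gene in the brain vessel forkhead genes (red) and in 6 linked lists (grey), with the median of each list as a black bar. Medians run from -0.54 for the cluster neighbours to 0.21 for the PI3K and Akt genes, and 0 genes shown had an adjusted p under 0.05 by the edgeR quasi-likelihood test.

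Likeness to the members was measured as the distance between centred log2 CPM over the 4 libraries, among genes with a mean of at least 5 CPM. Among the 3 genes nearest to Foxf2 were Tgfbrap1 and Api5, with Tgfbrap1 at 23.4 and 33.2 CPM in STING ECKO, against 31.05 and 30.5 CPM in WT. The 3 nearest to Foxq1 were Erap1, Ppfibp2 and Dcaf11, for Foxc1 Ccdc94, Fbxl12 and Rsf1, and for Foxf1 Zswim7, Pbx2 and Polr2h. For Foxo1 they were Ctsd, Tmem63b and Denr, and for Foxp1 Scoc, Dnajc1 and Creld1. Foxo3 was below the minimum. Distances of the nearest genes ran from 0.0220 for Ctsd to 0.264 for Zswim7 in log2 units, and with 4 libraries and 10297 genes compared, close profiles are a description only.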

How the data were processed

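RNA sequencing of 2 STING ECKO and 2 WT libraries was deposited as 2 tables, STING ECKO 1 beside WT 3 and STING ECKO 2 beside WT 5. As tools, Bowtie2 2.2.3, TopHat2 2.0.12 and HTSeq 0.6.0 are listed in the submitters' processing notes, with mm9 as build; no strand setting or annotation release is stated there. Per the file headers, the counts the authors deposited are raw reads of each gene. The deposited normalized columns are CPM, in which 0.5 read stands in place of 0; the deposited fold column is the ratio of those CPM, their log2 column its log2, and their p-values compare 1 library with 1 library. Table positions matched the GENCODE M21 annotation of GRCm38 in 89.7% of 17858 genes, so coordinates are given in GRCm38.

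The 14100 genes in both tables entered edgeR 4.0.16 (R 4.3.3) with filterByExpr (minimum count 10), TMM factors and the quasi-likelihood test, adjusted by Benjamini-Hochberg at 0.05. Standard errors are the log2 fold change over the square root of F, and intervals use the test's degrees of freedom. CPM use TMM-scaled totals of listed reads; 1 read was 0.0451 to 0.0537 CPM. Counting intervals are exact binomial (95%) and floors 3 reads; both cover counting error only. Lengths are the union of GENCODE exons. DESeq2 1.42.0, other scalings, no filter, genes of either table, a table block and leaving out each library were alternatives. The test was checked on simulated counts. The members and gene lists were chosen with earlier results of these data known. Beside the members, the text names listed forkhead genes, up to 4 genes per list by smallest p, and the 3 genes most alike. Fendrr, Foxl2os, Acta2, Dcn, Tmem173, Ddx3y and Xist are named for the reasons given or as checks. Named after their values were seen were Dusp22, Lef1, Ppard, Rgs5, Abcc9, Twist1, Kcnj8, Vtn, Col1a2, Col3a1, Igf2, Tagln, Myh11 and Cnn1. Likeness used log2 CPM with a prior count of 2. A few genes that this rule names are not reported here.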

Additional observations from a re-analysis of the deposited data

Results flagged for a closer look

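Foxc2 had 141 reads in STING ECKO 1 and 0 reads in WT 3, and it was listed in 1 table only, so that it lay outside the genotype test. It is given here because reads were present in data the comparison did not use, above the WT library of the same table. The table of STING ECKO 2 and WT 5 does not list it, which by the pattern of listed genes leaves at most 4 reads in either library.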

How the results depend on the processing

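The genotypes share no library numbers; the fit paired by deposited table, as a block, gave 0 calls over all genes (277 at an unadjusted p under 0.05) and 0 of 7 members. It moved the log2 fold change of Foxc1 to -0.79, against -0.44 without the block, and that of Foxq1 to 0.06, against 0.15. DESeq2 called 87 of 13365 genes, against 0 by the edgeR quasi-likelihood test (650 at an unadjusted p under 0.05), and called 0 of 7 members; the cause was not tested. The counts of calls were 0 over all genes and 0 over the members under other scalings, no filter, genes of either table and each left-out library. With no library left out, 42 of 42 log2 fold changes of members kept their sign and side of the threshold. With 1 library left out, 5 of 28 turned sign. The log2 fold change then ranged from -0.46 to 0.57 for Foxq1, from -0.037 to 2.68 for Foxf1 and from -1.86 to 0.26 for Foxc1, each turning without STING ECKO 2. It ranged from -0.43 to 0.11 for Foxf2, turning without STING ECKO 1, and from -1.59 to 0.14 for Foxo3, turning without WT 5. It kept below 0 for Foxo1 (-0.38 to -0.31) and Foxp1 (-0.63 to -0.13). The groups of both genes do not overlap, so a left-out library could hardly turn their sign. Leaving out a library leaves 1 of its genotype, assumed to vary like the others. Depth limits Foxo3, with 42 to 168 reads, and Foxc2, detected in 1 library.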
